A study of Mus musculus with 12 samples.

Results

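The 12 mouse liver libraries were divided by the level of *Saa1* (ENSMUSG00000074115), the gene of serum amyloid A 1, a plasma protein that the liver makes in inflammation. A library with at least 100 FPKM of *Saa1* was called Saa1-high and a library below 100 FPKM Saa1-low, whatever its label. FPKM is the number of sequenced fragments of a gene, scaled to the gene's length and to the size of the library. The groups were thus chosen by the deposited *Saa1* FPKM alone. The rule gave 6 Saa1-high and 6 Saa1-low libraries of 12. The division was made from a measured value, so the *Saa1* levels themselves are given as a description, and *Saa1* was left out of every test. A test on another gene shows only whether that gene moved with *Saa1* across these libraries.

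The livers came from wild-type (WT) C57BL/6J mice, with 3 libraries in each of 4 groups. CD libraries came from mice on a diet that the labels give only as CD, and HFD libraries from mice on a high-fat diet. CD_DSS and HFD_DSS libraries came from mice on the same diets that also received 2% dextran sulfate sodium (DSS), a chemical that injures the lining of the colon when it is drunk by mice. All 4 groups share the strain and the genotype. The labels used here state neither age, sex nor the duration of diet or DSS, nor do they tie each library to its own animal. The p-values below therefore measure the spread between libraries, part of which may be technical.

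The Saa1-high libraries were HFD 1, CD_DSS 2, CD_DSS 3 and HFD_DSS 1, 2 and 3. The Saa1-low libraries were CD 1, 2 and 3, HFD 2, HFD 3 and CD_DSS 1. *Saa1* stood at 579 FPKM in HFD 1, 595 in CD_DSS 2, 483 in CD_DSS 3, 1104 in HFD_DSS 1, 191 in HFD_DSS 2 and 2670 in HFD_DSS 3. It stood at 15.0 FPKM in CD 1, 49.2 in CD 2, 32.8 in CD 3, 19.9 in HFD 2, 22.4 in HFD 3 and 9.14 in CD_DSS 1. The lowest member of the high side was thus HFD_DSS 2 and the highest member of the low side CD 2. In 10 libraries the Saa1 state and the DSS label coincided. The other 2 libraries went against their label: HFD 1 had no DSS label and a high *Saa1* level, and CD_DSS 1 had the DSS label and the lowest *Saa1* level of all 12. These 2 libraries are the ones in which a gene that goes with *Saa1* and a gene that goes with the DSS label part from each other.

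The acute phase response is the switch in liver protein synthesis that follows inflammation. Cytokines of the interleukin-6 family act on hepatocytes through gp130 and STAT3, and interleukin-1 and tumour necrosis factor act through NF-κB and C/EBP factors, and together they raise the transcription of serum amyloid A, haptoglobin, hemopexin, fibrinogen and other secreted proteins. SOCS3 is the feedback inhibitor of the STAT3 branch, and CXCL1 is a neutrophil chemoattractant that NF-κB induces.

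Promoter sequences are shown for *Saa1*, which set the division, for *Lcn2* and *Steap4*, whose libraries separated by Saa1 state, and for *Socs3* and *Cxcl1*, whose libraries separated by DSS label. Each runs 5′ to 3′ over the 250 bases before the RefSeq transcription start of build GRCm38.p6. Capitals mark letters that match TTCNNNGAA (STAT), TTGCNNAA (C/EBP) on either strand, or GGG, any 2 bases and then TTTCC (NF-κB) on either strand. The windows lie at chr7:46742981-46743230 on the minus strand for *Saa1*, chr2:32387740-32387989 on the minus strand for *Lcn2*, chr5:7960222-7960471 on the plus strand for *Steap4*, chr11:117969367-117969616 on the minus strand for *Socs3* and chr5:90890995-90891244 on the plus strand for *Cxcl1*.
Saa1: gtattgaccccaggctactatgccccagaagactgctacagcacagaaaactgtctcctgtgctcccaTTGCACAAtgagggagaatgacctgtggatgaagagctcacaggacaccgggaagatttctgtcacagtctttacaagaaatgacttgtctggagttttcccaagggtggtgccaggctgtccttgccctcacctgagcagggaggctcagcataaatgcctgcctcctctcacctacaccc
Lcn2: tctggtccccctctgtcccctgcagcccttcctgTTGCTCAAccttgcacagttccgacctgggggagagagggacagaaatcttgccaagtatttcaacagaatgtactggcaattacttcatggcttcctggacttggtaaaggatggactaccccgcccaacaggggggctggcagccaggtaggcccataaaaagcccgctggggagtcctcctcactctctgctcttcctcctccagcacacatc
Steap4: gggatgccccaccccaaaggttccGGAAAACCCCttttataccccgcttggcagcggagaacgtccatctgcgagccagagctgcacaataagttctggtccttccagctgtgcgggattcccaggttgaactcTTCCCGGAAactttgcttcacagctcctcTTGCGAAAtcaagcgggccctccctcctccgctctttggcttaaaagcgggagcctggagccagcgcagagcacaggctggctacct
Socs3: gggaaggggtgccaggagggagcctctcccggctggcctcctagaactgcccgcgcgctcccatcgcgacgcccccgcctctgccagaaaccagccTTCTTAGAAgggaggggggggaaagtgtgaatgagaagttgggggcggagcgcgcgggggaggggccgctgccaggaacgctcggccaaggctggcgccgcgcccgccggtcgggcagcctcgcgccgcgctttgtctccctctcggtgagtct
Cxcl1: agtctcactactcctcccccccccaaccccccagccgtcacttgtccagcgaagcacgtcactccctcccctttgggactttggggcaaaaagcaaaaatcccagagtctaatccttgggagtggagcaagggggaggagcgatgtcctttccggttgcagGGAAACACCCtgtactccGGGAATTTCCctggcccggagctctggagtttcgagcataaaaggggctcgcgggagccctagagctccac
The window of *Saa1* held 1 C/EBP match, which began 182 bases before the start, and that of *Lcn2* held 1, which began 216 bases before the start. The window of *Steap4* held 1 match of each kind, the STAT match 116 bases, the C/EBP match 87 bases and the NF-κB match 226 bases before the start. The window of *Socs3* held 1 STAT match and that of *Cxcl1* held 2 NF-κB matches. None of the 5 windows held matches of different kinds that overlapped. A match is a stretch of letters and not a measured binding site. Over the tested genes with a promoter in the table (7982 of 10805), 5.70% held the STAT letters, 8.07% the C/EBP letters and 1.32% the NF-κB letters. Among genes higher in all 6 Saa1-high libraries than in all 6 Saa1-low ones (270 of 337 with a promoter) these shares were 10.0%, 14.4% and 2.59%. Among genes higher in all 6 DSS libraries than in all 6 others (239 of 296) they were 8.37%, 5.86% and 1.67%. No test was made of these shares.

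The fragment numbers recovered from the FPKM values lay between 23.4 M and 29.4 M per library. *Alb* (albumin), the leading hepatocyte marker, lay between 16130 and 37498 FPKM in every library, and none of the 12 hepatocyte markers was under 1 FPKM throughout. The tests used the 10805 genes that reached 1 FPKM in 3 or more libraries, fitted as log2(FPKM + 1) with limma and adjusted by the Benjamini-Hochberg method over all of them. A fold on this scale is a fold of FPKM + 1 and understates the change of low genes. The RNA is of whole liver, in which fewer cells of a type and less RNA per cell cannot be told apart.

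A model with diet, DSS label and Saa1 state together asked which genes moved with the Saa1 state when the label was held fixed, and the reverse. At an adjusted p under 0.05 it called 59 genes for the Saa1 state (0.546% of those tested), of which 42 (0.389%) were higher and 17 (0.157%) lower in Saa1-high livers. It called 125 genes for the DSS label (1.16%), of which 41 (0.379%) were higher and 84 (0.777%) lower with DSS. After rescaling to TPM, which gives every library the same total and let 13267 genes pass the filter, the split was 13 higher and 2 lower for the state, and 88 higher and 36 lower for the label. Both counts rest on HFD 1 and CD_DSS 1: without HFD 1 they were 8 and 16, and without CD_DSS 1 they were 1 and 14. The state count also fell to 0 without HFD 2, without HFD 3 or without CD_DSS 2, and rose to 166 without HFD_DSS 2, where the label count rose to 292. No gene was called for the state with every library left out in turn, and 3 were for the label, *Zbtb16* and *Klf10* among them. Each factor fitted with diet but without the other called far more genes, 1903 for the state (17.6%; 8.09% higher and 9.52% lower) and 2271 for the label (21%; 9.28% higher and 11.7% lower); state and label coincide in 10 of the 12 libraries.

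**Figure D1:**
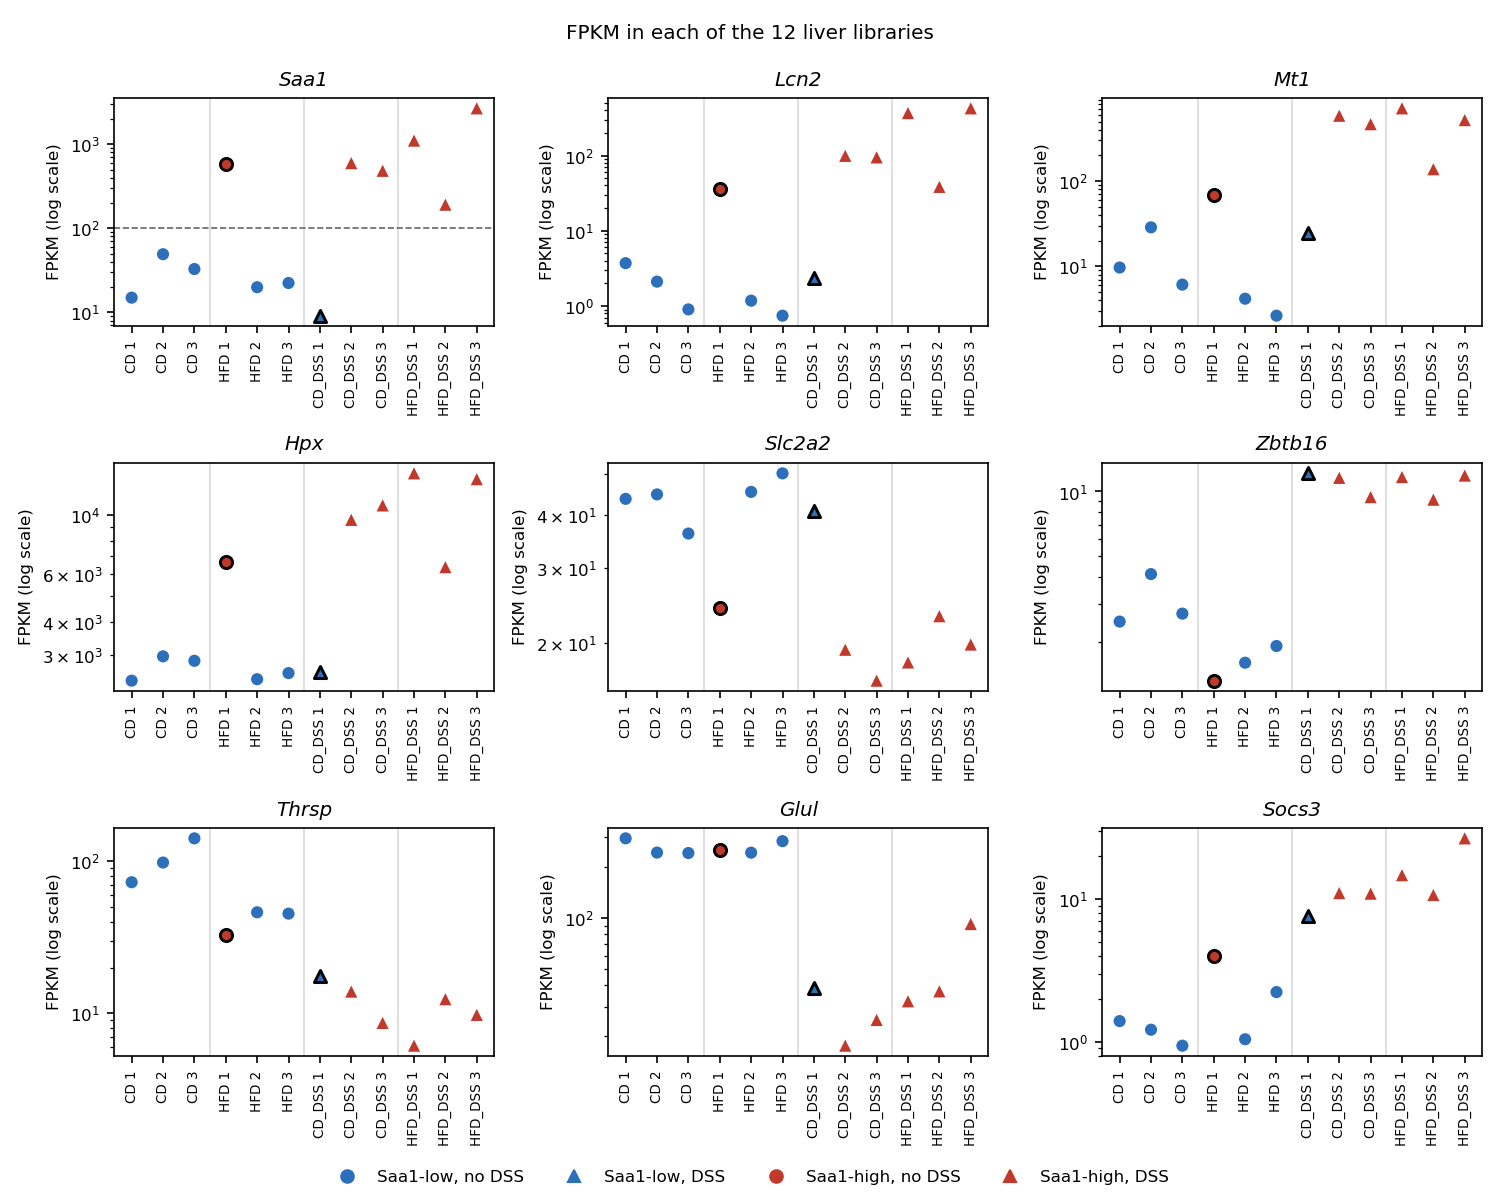
FPKM of 9 genes in each of the 12 libraries, on a log axis, with red for Saa1-high and blue for Saa1-low libraries, triangles for DSS and circles for no DSS, and black edges on HFD 1 and CD_DSS 1. The dashed line is the threshold of 100 FPKM. For *Lcn2*, *Mt1*, *Hpx* and *Slc2a2* the red and blue libraries do not overlap, and for *Zbtb16*, *Thrsp*, *Glul* and *Socs3* the triangles and circles do not overlap.

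A plainer reading needs no model. In 639 genes (5.91% of those tested) the 6 Saa1-high libraries did not overlap with the 6 Saa1-low ones, 337 higher (3.12%) and 302 lower (2.8%). In 712 genes (6.59%) the 6 DSS libraries did not overlap with the 6 others, 296 higher (2.74%) and 416 lower (3.85%). No gene can do both, since HFD 1 and CD_DSS 1 change sides. With TPM the splits were 286 higher and 378 lower by state, and 499 higher and 215 lower by label, so both splits turned, with more genes (13267) passing the filter. With median-of-ratios scaling, where 10811 genes passed, they were 368 higher and 274 lower by state, and 336 higher and 394 lower by label.

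Positive acute phase genes, those that rise in the response, were mostly on the side of the Saa1 state. Of the 33 listed positive acute phase genes 30 were tested, *Saa1* being left out. The state was called for 9 of the 30, all higher, and the label for 0. Of all genes tested 0.389% were called higher for the state. The median coefficient of the 30 was 1.56 for the state and 0.61 for the label on the log2 scale, against medians of -0.01 and 0.00 for all genes tested. The 2 groups of libraries did not overlap by state in 21 of the 30, all higher, and by label in 3, *Itih4*, *Serpina3m* and *Cp*. These were 70% and 10% of the list, against 5.91% and 6.59% of all genes tested. With TPM, where 31 of the list were tested, 18 separated by state and 9 by label, all higher. Of all 13267 genes tested with TPM, 286 and 499 were higher in this way. Listed negative acute phase genes, those that fall in the response, did not go with the state as a set. Of 16 tested, 0 were called for the state and 1, *Cyp4a14*, for the label, higher. By state 1 separated, higher (6.25%), and by label 1 was higher and 2 lower (18.8%). Their median coefficients were 0.10 for the state and 0.12 for the label. The lists were drawn up with earlier results of these data known, and their direction is no independent evidence.

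*Lcn2* encodes lipocalin 2, which binds bacterial siderophores, and lies at chr2:32384633-32388252. Its level in the Saa1-high libraries had a lowest value of 35.8, a median of 96.7 and a highest value of 423 FPKM, against 0.746, 1.65 and 3.72 FPKM in the Saa1-low ones. HFD 1, with no DSS, held the 35.8, and CD_DSS 1 stood at 2.35 FPKM, within the range of the untreated CD livers. The groups did not overlap, and *Lcn2* rose by 4.55 ± 0.85 (SE) on the log2 scale, 23.4-fold, with the Saa1 state (limma, adjusted p = 0.0440), while its label coefficient was 1.23 (adjusted p = 0.414).

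*Hpx*, the gene of the heme-binding protein hemopexin, ranged from 6386 to 14293 FPKM in the Saa1-high libraries with a median of 10218, and from 2410 to 2970 FPKM with a median of 2584 in the Saa1-low ones. HFD 1 stood at 6673 and CD_DSS 1 at 2596 FPKM. It rose 3.23-fold with the state (limma, adjusted p = 0.0440), and the label coefficient was 0.31 (adjusted p = 0.566). *Lrg1*, a secreted leucine-rich glycoprotein, ranged from 899 to 1692 FPKM against 207 to 420, with HFD 1 the lowest of the high side and CD_DSS 1 the highest of the low side. Its rise was 2.91-fold (limma, adjusted p = 0.0368). *Hp*, the hemoglobin-binding protein haptoglobin, ranged from 4020 to 11252 FPKM against 1571 to 2141 and did not overlap either, but its state coefficient of 1.67 did not pass the test (limma, adjusted p = 0.0590).

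*Lbp*, the lipopolysaccharide-binding protein, had 40.7, 93.0 and 106 FPKM as lowest, median and highest value in the Saa1-high libraries and 17.6, 19.2 and 25.2 in the Saa1-low ones. *Fgl1*, a secreted fibrinogen-like protein, had 186, 364 and 476 FPKM against 41.0, 59.8 and 117. *Steap4*, a metalloreductase of the plasma membrane, had 178, 253 and 467 FPKM against 39.5, 47.5 and 73.2. All 3 separated by state, with HFD 1 at 49.2, 186 and 218 FPKM and CD_DSS 1, the highest Saa1-low library for each of them, at 25.2, 117 and 73.2 FPKM. They rose 3.01-, 3.53- and 3.90-fold (limma, adjusted p = 0.0447, 0.0309 and 0.0382).

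*Saa2*, a close copy of *Saa1* that can share reads with it, ranged from 61.5 to 1927 FPKM against 2.70 to 8.37. Its rise of 5.95 ± 1.00 on the log2 scale (limma, adjusted p = 0.0440) is therefore no separate support for the division. *Saa4*, known as the constitutive member of the family, ranged from 250 to 683 FPKM against 97.9 to 179, with 475 in HFD 1 and the lowest value in CD_DSS 1. It separated completely but its coefficient of 1.72 did not pass (limma, adjusted p = 0.0549). *Orm2*, an orosomucoid that carries drugs and lipids in plasma, ranged from 53.0 to 650 FPKM against 3.11 to 11.8 and did not pass either (limma, coefficient 4.24, adjusted p = 0.0549). *Apcs*, the pentraxin serum amyloid P, and *Serpina3n*, a protease inhibitor, also separated, at 159 to 1231 against 43.5 to 96.3 FPKM and 352 to 1664 against 147 to 209 FPKM. In each of the last 2 HFD 1 was the lowest Saa1-high library, and neither passed the test for the state (limma, adjusted p = 0.0760 and 0.104).

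Genes that bind or carry metals were among those called for the state. Of these, *Mt1*, *Mt2* and *Hpx* are members of the positive acute phase list above and were counted there. *Mt1*, a metallothionein that binds zinc and copper, had 68.3, 493 and 714 FPKM as lowest, median and highest value in the Saa1-high libraries and 2.64, 7.90 and 28.7 in the Saa1-low ones. HFD 1 held the lowest value of the high side and CD_DSS 1 stood at 24.4 FPKM, below CD 2. *Mt1* rose 18.1-fold with the state (limma, adjusted p = 0.0440). *Mt2*, its neighbour, ranged from 11.1 to 142 FPKM against 0 to 4.5 and rose 15.7-fold (limma, adjusted p = 0.0320); 73.5% of its exon length overlaps the gene *Gm45774* on the other strand, and no source used here names the strand setting of the counting. *Slc39a14*, a zinc and iron importer of hepatocytes, ranged from 31.3 to 59.5 FPKM against 15.6 to 21.6 and rose 2.07-fold (limma, adjusted p = 0.0440). Of 19 iron-handling genes tested, the state was called for 2, *Slc39a14* and *Hpx*, both higher, against 0.389% of all genes tested. In this list 5 genes were higher and 2 lower in all Saa1-high libraries, together 36.8% of it against 5.91% of all genes tested. *Hamp*, the iron hormone hepcidin, overlapped between the Saa1 states, at 15.1 to 687 FPKM against 297 to 890.

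Several signalling genes were called for the state. *Bcl3*, a nuclear regulator of NF-κB, ranged from 22 to 42.6 FPKM against 8.54 to 15.8 and rose 2.46-fold (limma, adjusted p = 0.0447). *Tlr2*, a receptor for bacterial lipoproteins, ranged from 1.67 to 3.85 FPKM against 0.712 to 1.18 and rose 2.43-fold (limma, adjusted p = 0.0368), with HFD 1 at 3.65 FPKM. *Tlr2* was singled out after its values were seen, as were *Litaf*, which acts in endosomal sorting, and *Tnfrsf1a*, a tumour necrosis factor receptor. *Litaf* ranged from 31.6 to 45.6 FPKM against 16.5 to 22.3, rose 1.80-fold, and had the lowest adjusted p of the state along with *Slc2a2* (limma, 0.0155). *Tnfrsf1a* ranged from 45.6 to 67.4 FPKM against 27.4 to 33.5 and rose 1.71-fold (limma, adjusted p = 0.0440).

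Among the 17 genes lower with the Saa1 state were those of a glucose transporter, a bile acid enzyme and an mRNA-editing cofactor. *Slc2a2* encodes GLUT2, the glucose transporter of hepatocytes, at chr3:28697903-28731359. It had 16.3, 19.6 and 24.2 FPKM as lowest, median and highest value in the Saa1-high libraries and 36.2, 44.2 and 50.2 in the Saa1-low ones. HFD 1 was the highest of the Saa1-high libraries and CD_DSS 1, at 41.0 FPKM, lay among the livers without DSS. *Slc2a2* was 2.08-fold lower with the state (limma, -1.06 ± 0.12 on the log2 scale, adjusted p = 0.0155), and its label coefficient was -0.13 (adjusted p = 0.555). *Akr1d1*, the steroid reductase of bile acid synthesis, ranged from 24.4 to 32.1 FPKM against 46.7 to 81.6 and was 1.60-fold lower (limma, adjusted p = 0.0440). *A1cf*, a cofactor of *Apob* mRNA editing, ranged from 27.6 to 38.9 FPKM against 46.3 to 50.9 and was 1.61-fold lower (limma, adjusted p = 0.0447). For *A1cf*, HFD 1 lay at the bottom of the Saa1-high libraries beside HFD_DSS 1, and CD_DSS 1 was the lowest of the Saa1-low libraries.

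Of 24 tested genes that make fatty acids and triglycerides, 8 were lower in all Saa1-high than in all Saa1-low libraries (*Acly*, *Acacb*, *Fasn*, *Scd1*, *Me1*, *Acss2*, *Gpam* and *Pklr*) and 2 were lower in all DSS libraries (*Thrsp* and *Agpat2*). With TPM these counts were 6 and 2. Of all genes tested 2.8% were lower in all Saa1-high and 3.85% in all DSS libraries. *Scd1*, the stearoyl-CoA desaturase, ranged from 8.37 to 294 FPKM against 547 to 1598, with 108 in HFD 1 and 1307 in CD_DSS 1. The level in CD_DSS 1 lay between those of CD 3 and CD 2. The state coefficient of *Scd1* was -2.44 (limma, adjusted p = 0.165). *Pklr*, the liver pyruvate kinase, ranged from 14.9 to 26.4 FPKM against 40.0 to 54.1 (limma, adjusted p = 0.0625). The median coefficient of the 24 genes was -0.50 for the state and -0.22 for the label. In this list the joint model called 0 genes for the state and 1, *Thrsp*, for the label, against 0.546% and 1.16% of all genes tested.

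Of 20 markers of Kupffer cells and other macrophages 19 were tested. By state 10 separated, all higher in Saa1-high livers (9 with TPM), against 1 by label, *Marco* (2 with TPM). These were 52.6% and 5.26% of the list, against 5.91% and 6.59% of all genes tested. *C1qa* and *C1qb*, subunits of the complement initiator C1q made mainly by macrophages, were called for the state. Of all genes tested 0.389% were called higher for the state and 0.379% for the label. *C1qa* ranged from 54.8 to 84.1 FPKM against 39.7 to 53.8 and rose 1.64-fold, and *C1qb* ranged from 56.3 to 82.7 FPKM against 40.7 to 50.6 and also rose 1.64-fold (limma, adjusted p = 0.0440 for both). The other called member of the list, the tetraspanin *Cd9*, went with the label instead, at 7.82 to 15.3 FPKM with DSS against 5.13 to 8.84 without, and rose 1.53-fold (limma, adjusted p = 0.0385). *Clec4f*, the Kupffer cell lectin, ranged from 71.2 to 90.3 FPKM against 45.1 to 59.8 and did not pass (limma, adjusted p = 0.0549). The summed level of all 20 markers was 469 to 701 FPKM in Saa1-high and 347 to 436 FPKM in Saa1-low libraries, with 539 in HFD 1 and 413 in CD_DSS 1. Its part in the other results was not tested.

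Of 16 neutrophil markers only 5 were tested, and 9 of the 16 stayed under 1 FPKM in every library. *S100a8* ranged from 1.30 to 15.2 FPKM in Saa1-high and from 0.416 to 0.724 FPKM in Saa1-low libraries, and *S100a9* from 2.41 to 33.2 against 0.513 to 2.18 FPKM. *Ly6g*, which marks mature neutrophils, was listed at 0 in 8 of 12 libraries, with 0 in HFD 1 and a highest value of 0.177 FPKM. The summed level of the markers other than *Lcn2* was 6.39 to 62.3 FPKM against 2.14 to 4.47 FPKM, with 26.3 in HFD 1. *Prtn3*, a protease of neutrophil granules, ranged from 3.13 to 34.2 FPKM against 0.143 to 0.553 and rose 8.35-fold (limma, adjusted p = 0.0440), while the granule genes *Elane* and *Mpo* did not exceed 0.553 and 0.125 FPKM. The part of neutrophil RNA in the results on *Lcn2* and *Prtn3* was not tested. Summed erythroid markers were 174 to 703 FPKM in Saa1-high and 244 to 374 FPKM in Saa1-low libraries, with the highest value in HFD 1. The lowest summed endothelial markers of the 12 libraries, 99.2 FPKM, were also those of HFD 1. The part of these differences in the other results was not tested.

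Of the 41 genes higher with the DSS label, *Zbtb16* and *Klf10* had the smallest adjusted p among those with a named product. *Zbtb16*, the zinc-finger protein PLZF, had 9.16, 11.6 and 12.1 FPKM as lowest, median and highest value in the 6 DSS libraries and 1.32, 2.20 and 4.13 in the 6 others. CD_DSS 1 held the highest value of all 12 libraries and HFD 1 the lowest, which is the opposite of their *Saa1* order. *Zbtb16* rose 4.07-fold with the label (limma, 2.02 ± 0.19 on the log2 scale, adjusted p = 0.00209), and its state coefficient was -0.22 (adjusted p = 0.616). *Klf10*, a transcription factor induced by TGF-β, ranged from 4.62 to 7.80 FPKM against 0.836 to 1.98, again with CD_DSS 1 highest. It rose 3.47-fold with the label (limma, adjusted p = 0.00253).

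*Socs3*, the feedback inhibitor of STAT3 signalling, had 7.67, 11.0 and 26.7 FPKM in the DSS libraries and 0.939, 1.31 and 4.02 in the others. *Cxcl1*, the neutrophil chemoattractant, had 14.6, 20.2 and 70.9 FPKM against 0.408, 1.11 and 8.13. For both genes CD_DSS 1, with the lowest *Saa1*, lay above every liver without DSS, and HFD 1, with 579 FPKM of *Saa1*, was the highest of the livers without DSS but lay below every DSS liver. *Socs3* rose 3.70-fold and *Cxcl1* 5.90-fold with the label (limma, adjusted p = 0.0139 and 0.0412), and their state coefficients of 0.72 and 1.39 did not pass (adjusted p = 0.244 and 0.245). *Stat3* itself separated by label, at 24.5 to 34.7 against 14.7 to 22.2 FPKM, and its label coefficient of 0.46 did not pass (limma, adjusted p = 0.0513).

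Regulators of development and of the stress response were also among the genes higher with the label. *Sox9*, a factor of biliary and progenitor cells, ranged from 3.16 to 4.44 FPKM against 1.37 to 1.94 and rose 1.90-fold (limma, adjusted p = 0.0120). *Hes1*, a target of Notch signalling, ranged from 3.69 to 6.97 FPKM against 1.13 to 2.34 and rose 2.40-fold (limma, adjusted p = 0.0172). *Atf3*, *Fosl2* and *Klf10* were the immediate early genes called for the label, 3 of 17 tested, all higher, and none was called for the state. Of all genes tested 0.379% were called higher for the label. In the same list 6 genes separated by label (35.3%, against 6.59% of all genes) and 1, *Btg2*, by state (5.88%, against 5.91%). The summed level of 10 cholangiocyte markers, *Sox9* among them, was 35.8 to 47.0 FPKM in DSS libraries, with the highest value in CD_DSS 1, and 25.1 to 40.1 FPKM in the others. Most of this sum was *Spp1*, at 24.9 to 35.0 against 15.1 to 31.2 FPKM, and 5 of the 10 stayed under 1 FPKM throughout. *Krt19* (0.472 to 1.61 against 0.267 to 1.25 FPKM) and *Epcam* (0.543 to 1.43 against 0.586 to 1.26 FPKM) overlapped between the labels. The part of the summed level in the results on *Sox9* and *Hes1* was not tested.

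*Arrdc3*, an arrestin-domain protein, and *Cyp4a14*, a fatty acid hydroxylase induced by PPARα, rose with the label while their state coefficients were negative. *Arrdc3* had 12.5, 22.3 and 45.4 FPKM in the DSS libraries and 1.87, 7.66 and 11.3 in the others, with the highest value in CD_DSS 1 and the lowest in HFD 1. It rose 5.72-fold (limma, adjusted p = 0.0139). *Cyp4a14* stood at 102 FPKM in CD_DSS 1, at 18.4 to 51.1 FPKM in the other DSS libraries, at 7.60 FPKM in HFD 1 and at 17.7 to 25.5 FPKM in the other livers without DSS. These ranges overlap, and the called rise of 4.29-fold (limma, adjusted p = 0.0139) leans on CD_DSS 1 and HFD 1.

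**Figure D2:**
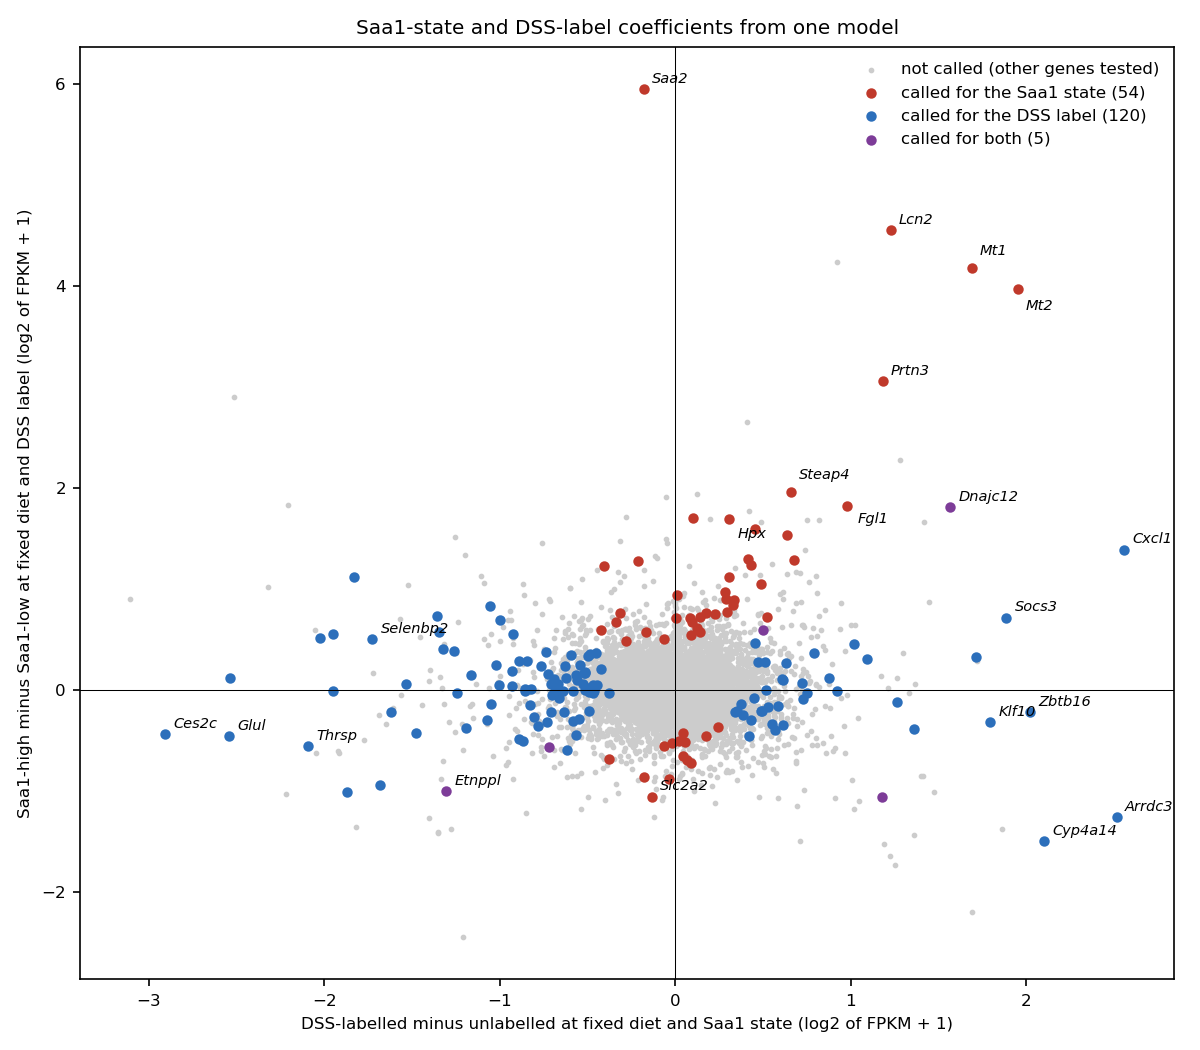
For each of the 10805 genes tested, the coefficient of the DSS label (x axis) against that of the Saa1 state (y axis) from a single model with diet, in log2(FPKM + 1). Red points were called for the state, blue for the label and purple for both; *Saa2*, *Lcn2*, *Mt1* and *Mt2* lie highest among the called genes and *Glul*, *Ces2c*, *Cxcl1* and *Arrdc3* far to the sides.

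Among genes lower with DSS was *Glul*, the glutamine synthetase of pericentral hepatocytes. It had 17.6, 34.6 and 92.0 FPKM in the DSS libraries and 242, 248 and 295 in the others. HFD 1 stood at 253 and CD_DSS 1 at 38.9 FPKM. *Glul* fell 5.82-fold (limma, adjusted p = 0.0151). Of 25 pericentral genes tested, 7 separated by label (28%, against 6.59% of all genes), all lower, and 0 by state. With TPM, where 28 were tested, these counts were 6 and 2, all lower. Among the 7 was *Cyp1a2*, at 30.4 to 219 against 329 to 373 FPKM. In the joint model 2 of the 25 were called for the label, *Glul* and the ammonium transporter *Rhbg* (61.4% of its exon length overlaps *Gm38392*), both lower. Of all genes tested 0.777% were called lower for the label. The median coefficients of the 25 were -0.36 for the state and -0.36 for the label. *G6pc*, the glucose-6-phosphatase of glucose release, ranged from 23.7 to 147 FPKM with DSS against 242 to 403 and did not pass (limma, label coefficient -1.92, adjusted p = 0.0660), while *Slc2a2* above went with the state.

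*Thrsp*, a regulator of lipogenesis, had 6.13, 11.1 and 17.5 FPKM in the DSS libraries and 32.5, 59.4 and 141 in the others, and fell 4.26-fold (limma, adjusted p = 0.0151). *Ces2c*, a carboxylesterase with close relatives in the genome that can share reads, had 0.1, 1.51 and 5.83 FPKM against 14.7, 23.2 and 36.7, and fell 7.51-fold (limma, adjusted p = 0.0350). *Sucnr1*, the succinate receptor, had 1.69, 2.30 and 6.60 FPKM against 14.8, 19.7 and 28.6, and fell 3.20-fold (limma, adjusted p = 0.0320). In each of these 3 genes CD_DSS 1 lay with the DSS livers and HFD 1 with the livers without DSS, and for *Thrsp* these were the nearest libraries of either side. *Tsc22d1* and the glucocorticoid-induced *Tsc22d3*, leucine zipper proteins, fell 2.79- and 2.5-fold (limma, adjusted p = 0.0151 and 0.0385). Of 19 tested targets of the glucocorticoid receptor, the label was called for *Zbtb16* (higher) and for *Tsc22d3* and *Ddit4* (lower), and the state for *Mt1*, *Mt2* and *Lcn2* (higher). *Mt1* and *Mt2* are also in the positive acute phase list. Of all genes tested 1.16% were called for the label and 0.546% for the state. In this list 4 separated by state, all higher (21.1%, against 5.91% of all genes). By label 3 were higher and 2 lower (26.3%, against 6.59%). The median coefficients were 0.21 for the state and -0.08 for the label.

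Of 26 male-biased liver genes tested, 4 were called for the label, all lower (*Ces2c*, *Selenbp2*, *Serpina12* and *Mup7*), and 0 for the state. Of all genes tested 0.777% were called lower for the label. The median coefficient of the 26 was -0.88 for the label and -0.14 for the state. *Selenbp2*, a selenium-binding protein, had 105, 262 and 412 FPKM with DSS and 459, 655 and 698 without, with the 105 in CD_DSS 1, and fell 3.31-fold (limma, adjusted p = 0.0180). *Serpina12*, the adipokine vaspin, ranged from 5.18 to 11.9 FPKM against 14.7 to 24.5 and fell 2.07-fold (limma, adjusted p = 0.0236). *Cth*, which makes cysteine, ranged from 63.6 to 98.4 FPKM against 110 to 194 and fell 1.74-fold with the label (limma, adjusted p = 0.0139). Among 30 genes of urea synthesis and amino acid breakdown, the label was called for 3, all lower (*Glul*, *Sds* and *Cth*). In this list 11 separated by label (36.7%) and 4 by state (13.3%), all lower, against 3.85% and 2.8% of all genes tested. With TPM these counts were 5 and 7.

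**Figure D3:**
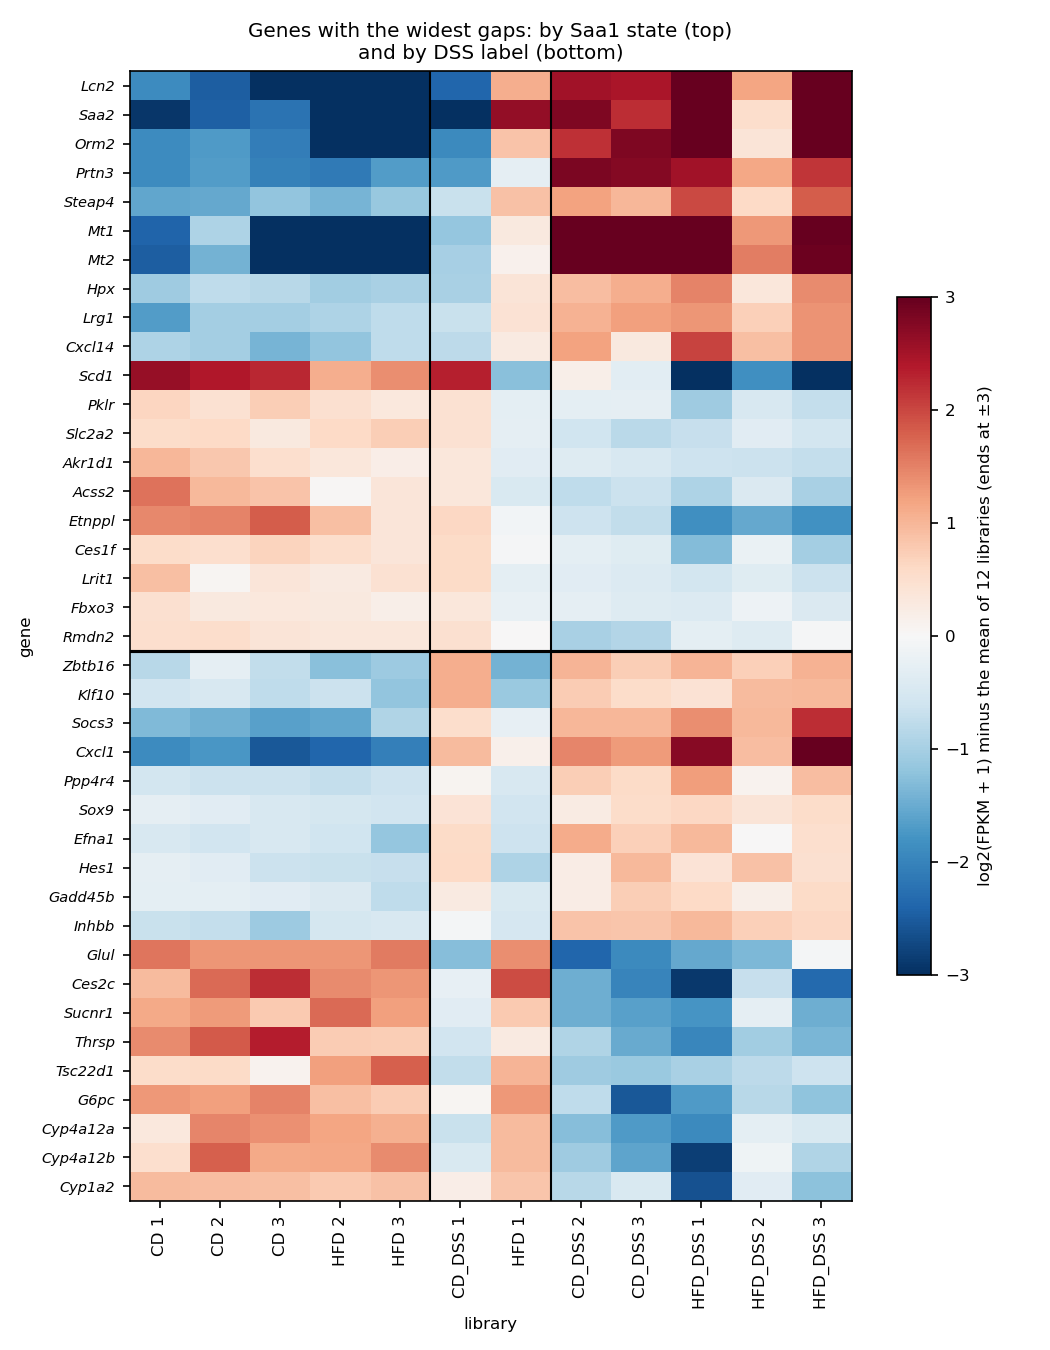
Genes with the widest gap between the 2 Saa1 states (top, 20 genes) and between the 2 DSS labels (bottom, 19 genes), as log2(FPKM + 1) minus the mean of the 12 libraries, with colours ending at -3 and 3. In the top block CD_DSS 1 lies on the side of the 5 leftmost libraries and HFD 1 on that of the 5 rightmost, and in the bottom block the reverse, with some values near the mean.

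The joint model called 5 genes for both factors. *Dnajc12*, a co-chaperone of the enzymes that hydroxylate aromatic amino acids, stood at 1.20 to 2.30 FPKM in the 5 Saa1-low livers without DSS, at 8.33 in CD_DSS 1, at 9.93 in HFD 1 and at 17.0 to 39.7 FPKM in the 5 Saa1-high livers with DSS. HFD 1 and CD_DSS 1 thus both lay between the sets, and *Dnajc12* rose 3.51-fold with the state and 2.96-fold with the label (limma, adjusted p = 0.0368 and 0.0178). *Etnppl*, which breaks down phosphoethanolamine, stood at 8.79 to 25.9 FPKM in the first of these sets, at 10.7 in CD_DSS 1, at 6.16 in HFD 1 and at 1.13 to 3.98 FPKM in the last. HFD 1 lay between the sets, while CD_DSS 1 lay below the 3 CD livers but above HFD 3. *Etnppl* fell 2.01-fold with the state and 2.47-fold with the label (limma, adjusted p = 0.0440 and 0.0139). *Tgm1* rose with both, *Gm36264* fell with both, and *Rnf186* fell with the state and rose with the label.

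The state and label coefficients can be set beside direct contrasts of the discordant libraries within their diet, in which a lone library is assumed to vary like the others. HFD 1 against HFD 2 and 3, both without DSS, gave 0 genes at an adjusted p under 0.05 in limma (0%), with 1663 at an unadjusted p under 0.05 and 0 with voom on the recovered fragments. The count was 287 without the filter on low values, 25 with library weights and 43 without HFD_DSS 2. CD_DSS 1 against the 3 CD livers, all Saa1-low, gave 21 genes (0.194%), 8 higher (0.074%) and 13 lower (0.12%), and 343 without the filter, 253 with library weights and 49 with voom. This count was 50 without HFD_DSS 2, 36 without CD 1, and 13 without HFD 2 or without HFD 3. Among the 21 genes *Zbtb16* was 3.25-fold and *Klf10* 3.22-fold higher, and *Selenbp2* 5.41-fold, *Bhmt* 3.62-fold and *Cyp8b1* 3.36-fold lower in CD_DSS 1 (limma, adjusted p = 0.0240, 0.0421, 0.00751, 0.0195 and 0.00751). *Bhmt* is the betaine-homocysteine methyltransferase and *Cyp8b1* the sterol hydroxylase of cholic acid synthesis.

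CD_DSS 1 also stood apart from all other libraries in the 3 genes called by a test of differences between groups that is given below. These 3 are not a full count, since CD_DSS 1 was also highest for *Cyp4a14* and *Arrdc3* above. *Mup22*, a major urinary protein, stood at 47.2 FPKM there and at 850 to 1763 FPKM in the other 11 libraries, 29.9-fold lower than in the CD livers (limma, adjusted p = 1.22e-05). *Mup10*, of the same family of near-identical copies among which reads can be split, stood at 20.7 FPKM there and at 0.496 to 2.41 FPKM elsewhere, and *Pdk4*, a kinase that curbs pyruvate oxidation, at 16.4 FPKM against 1.72 to 5.82. In the joint model none of the 3 was called for the state or the label. *Pdk4* was lower in all Saa1-high than in all Saa1-low libraries.

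Gene groups of cytokine signalling held members that separated by state and others by label. Of all genes tested 5.91% separated by state and 6.59% by label. Of 20 genes of IL-6 and STAT3 signalling tested, 3 separated by state (*Il1r1*, *Cebpd* and *Bcl3*) and 6 by label (*Il6st*, *Stat3*, *Socs3*, *Osmr*, *Pim1* and *Junb*), all higher. Of 18 NF-κB targets and cytokines, 4 separated by state (*Rela*, *Relb*, *Icam1* and *Vcam1*) and 3 by label (*Nfkbiz*, *Cxcl1* and *Irf1*), all higher. *Il6st*, the shared receptor gp130, ranged from 30.0 to 43.7 FPKM with DSS and from 21.2 to 25.6 without. *Il1r1*, the interleukin-1 receptor, ranged from 17.8 to 49.8 FPKM in Saa1-high and from 5.45 to 13.5 FPKM in Saa1-low livers. Neither passed the joint test (limma, adjusted p = 0.0711 for *Il6st* by label and 0.126 for *Il1r1* by state).

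**Figure D4:**
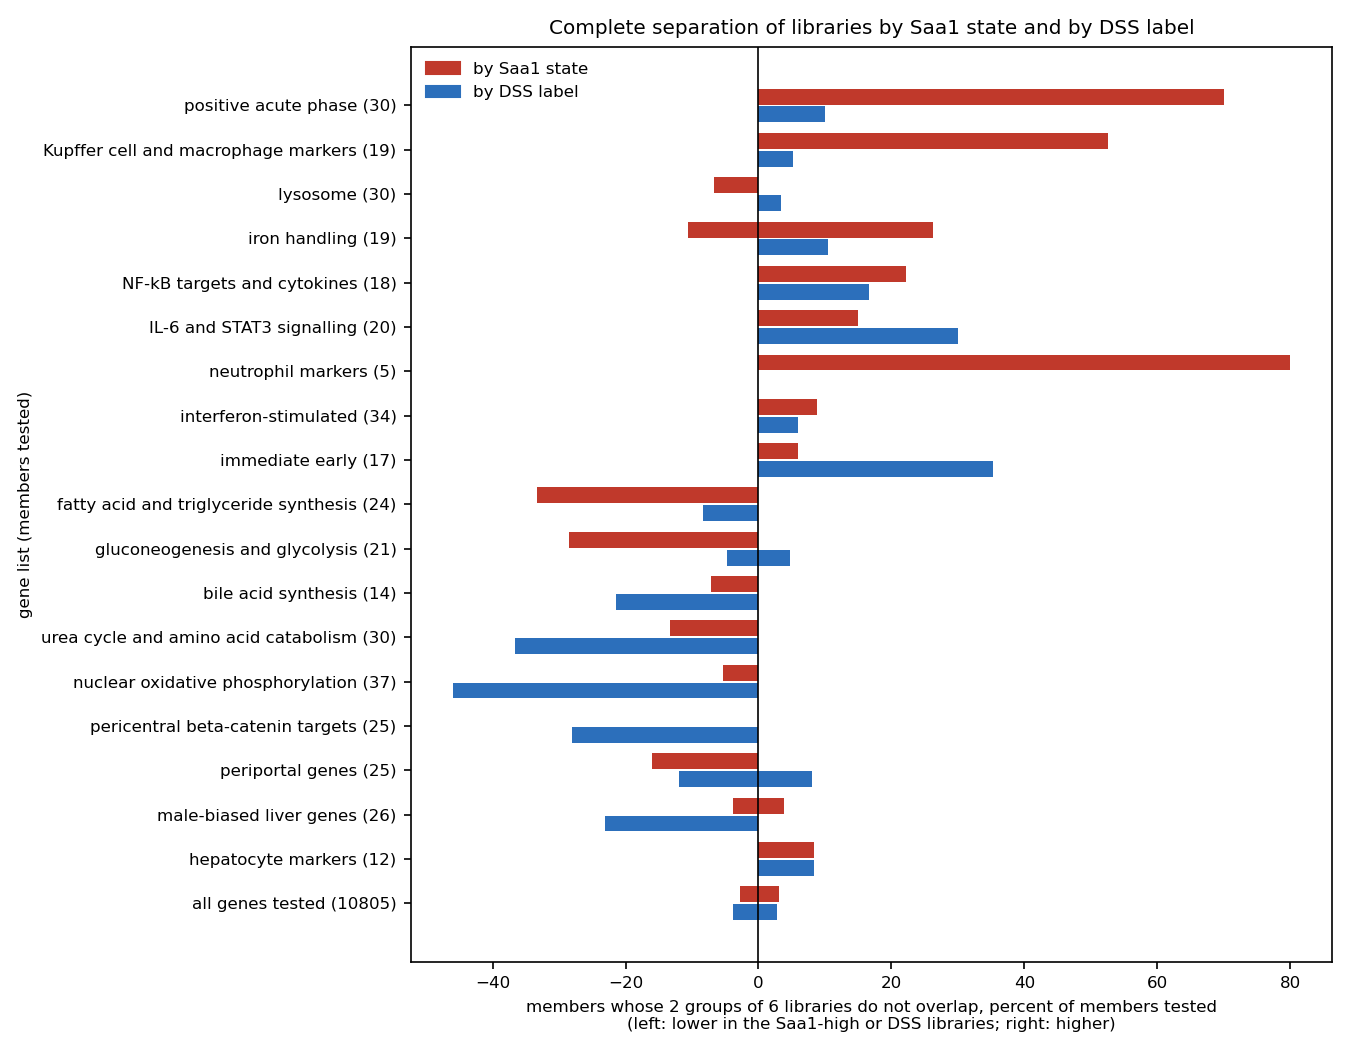
Share of the tested members of 18 gene lists, and of all genes tested, whose 2 groups of 6 libraries did not overlap, by Saa1 state (red) and by DSS label (blue), to the right where higher and to the left where lower. For all genes the shares are 5.91% and 6.59% in both directions together. The positive acute phase and macrophage lists reach far to the right in red and the pericentral and respiratory chain lists to the left in blue. The figure shows FPKM as deposited. With TPM the respiratory chain genes that separated were 4 by label and 9 by state.

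For the nuclear genes of the respiratory chain the reading depended on the scaling. Of 37 tested, 17 were lower in all DSS libraries and 2 in all Saa1-high ones, but with TPM the counts were 4 and 9. The joint model called 0 of the 37 for either factor, and the median coefficients were -0.03 for the state and -0.29 for the label. Of 34 interferon-stimulated genes 3 separated by state (8.82%) and 2 by label (5.88%), near the shares of all genes (5.91% and 6.59%). With TPM these counts were 2 and 5. Of 34 proteasome genes 0 separated by either. Of 47 genes of the cytosolic ribosome 0 separated by either and 0 were called in the joint model. For the state 46 of their coefficients were positive, with a median of 0.27 (5167 of all 10805 genes were positive). For the label 45 were negative, with a median of -0.17 (5398 of all 10805). With TPM the median coefficients were 0.17 and -0.08. These genes share the same libraries and are not replicates. Their median deviation from the mean of the 12 libraries was 0.25 in HFD 1 against -0.08 in HFD 2 and -0.20 in HFD 3. It was -0.17 in Saa1-high HFD_DSS 2 and 0.11 in Saa1-low CD 3. Of 12 hepatocyte markers 1 separated by each, *Trf* (63.5% of its exon length overlaps *Gm20425*) by state and *Hnf4a* by label. That is 8.33% of the list each, near the shares of all genes.

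As a last description, a model was fitted over the 10 libraries in which state and label coincide, and HFD 1 and CD_DSS 1 were then placed between the fitted levels of their own diet, with 0% for a Saa1-low liver without DSS and 100% for a Saa1-high liver with DSS. That model called 2867 genes (26.5%), 1266 higher (11.7%) and 1601 lower (14.8%). The median place over these genes was 41.5% for HFD 1 and 41.9% for CD_DSS 1. HFD 1 alone lay past 50% in 723 of them, CD_DSS 1 alone in 767, both in 495 and neither in 882. By this measure neither library sat with a single side as a whole.

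The places differed by gene group. For the 29 positive acute phase genes called, the median was 52.9% in HFD 1 and 14.1% in CD_DSS 1, and 16 lay past 50% in HFD 1 against 0 in CD_DSS 1. For the 9 negative acute phase genes called, 5 higher and 4 lower, the medians were -4.68% and 5.71%. For the 17 macrophage markers called the medians were 68.5% and 9.65%. For the 10 immediate early genes they were 5.03% and 78.5%, and for the 19 male-biased genes 12.4% and 70.7%. Bile acid and drug transporters, all 9 lower over the 10 libraries, had medians of 90.2% in HFD 1 and -16.7% in CD_DSS 1. The 13 called genes that make fatty acids and triglycerides had medians of 58.8% and 56.5%, and the 18 genes of the unfolded protein response 34% and 34.9%. Members of a list share the same 2 libraries and are not replicates, so these medians describe HFD 1 and CD_DSS 1 and carry no test.

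**Figure D5:**
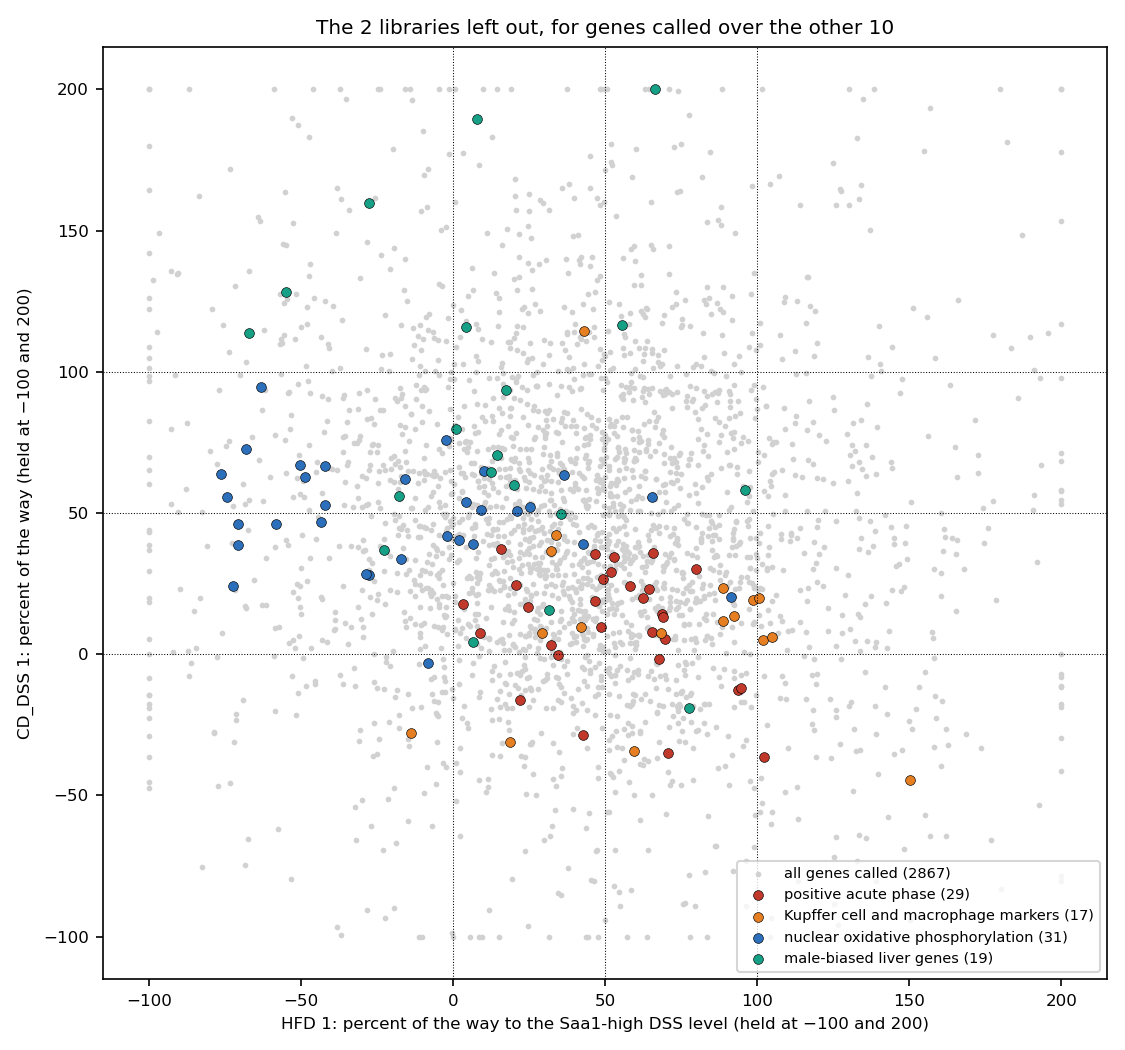
Place of HFD 1 (x axis) and CD_DSS 1 (y axis) between the level of Saa1-low livers without DSS (0%) and that of Saa1-high livers with DSS (100%), for 2867 genes called over the other 10 libraries, with values beyond the axes held at their ends. Positive acute phase genes (red) and macrophage markers (orange) lie mostly below 50% on the y axis, and most male-biased genes (green) lie above it and left of 50% on the x axis.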

How the data were processed

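FPKM values per gene of 12 mouse liver libraries were used as deposited by the authors. The submitters' processing notes name mm10 as the genome build and give no aligner or counter. Coordinates and overlaps were read from GENCODE annotation of that build. For 97.0% to 97.3% of values the FPKM corresponded to whole fragments (tolerance 0.02 fragments), and these gave the depths and an added voom test. limma 3.58.1 in R 4.3.3 was run on log2(FPKM + 1) with an intensity trend, over 10805 genes with 1 FPKM in 3 libraries, Saa1 excluded, in 6 fits. The named genes were the 10 largest changes in each direction of each fit, the 10 widest gaps in each direction, called list members and a short fixed set; genes outside it are marked as chosen after their values were seen. The split, the members and the 43 gene lists were chosen with earlier results of these data known. The fits were run on simulated data with independent noise for each gene and shifts added to genes of small spread. That run cannot show how stable the calls in these libraries are. Alternatives changed the pseudocount, filter, scaling, weights, diet term, split, and left out each library. Promoters came from RefSeq (GRCm38.p6). Some results that the rule names are not reported here.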

Additional observations from a re-analysis of the deposited data

Results flagged for a closer look

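Single libraries stood far from the other 5 of their group in 11 of 124 groups of 6 checked. Chance flags about 1 in 20 groups, but that rate does not apply here, since the genes were named for large changes in these same libraries, *Mup22*, *Mup10* and *Cyp8b1* for those of CD_DSS 1. HFD 1 lay apart among livers without DSS for *Cxcl1* (8.13 FPKM), *Stat3* (22.2 FPKM) and *Cyp4a14* (7.6 FPKM), and HFD 3 for *Efna1* (13.53 FPKM). CD_DSS 1 lay apart among DSS livers for *Inhbb* (1.717 FPKM), and among Saa1-low livers for *Dnajc12* (8.327 FPKM), *Cyp8b1* (86.18 FPKM), *Mup10* (20.72 FPKM) and *Mup22* (47.22 FPKM). CD 1 lay apart among Saa1-low livers for *Lrg1* (207.3 FPKM), and HFD_DSS 2 among Saa1-high livers for *Tlr2* (1.671 FPKM).

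The Saa1 difference within HFD (HFD 1 minus HFD 2 and 3) was also set against that within CD_DSS (CD_DSS 2 and 3 minus CD_DSS 1). The 2 differed in 3 genes by limma's interaction test, *Mup22* by -5.493 (adjusted p = 0.000172), *Mup10* by 4.174 (adjusted p = 0.0158) and *Pdk4* by 2.048 (adjusted p = 0.0191) on the log2 scale. The DSS difference among Saa1-low livers (CD_DSS 1 minus CD) and among Saa1-high livers (HFD_DSS minus HFD 1) differed in 2 genes, *Mup22* by -5.392 (limma, adjusted p = 0.00012) and *Mup10* by 3.655 (limma, adjusted p = 0.0295). All 5 differences involve CD_DSS 1 or HFD 1 as a lone library. HFD and CD_DSS, set against each other first, differ in both diet and DSS. In the comparison of DSS differences, the Saa1-low livers were on CD and the Saa1-high ones on the high-fat diet. Saa1 state and diet cannot be told apart in it.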

How the results depend on the processing

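The counts below are of genes at an adjusted p under 0.05, for the Saa1 state at fixed diet and DSS label (59 as reported), the DSS label at fixed diet and Saa1 state (125), the Saa1 state without the DSS label (1903), the DSS label without the Saa1 state (2271), HFD 1 against HFD 2 and 3 (0) and CD_DSS 1 against CD (21). Without a filter on low values the state count was 3, the label count 14, the state without the label 1171, HFD 1 287 and CD_DSS 1 343. A mean of at least 5 FPKM gave 45 for CD_DSS 1. TPM gave 15 for the state and 1 for HFD 1, and for the label alone 1155 higher and 801 lower. Library weights gave 2, 8, 3397, 25 for HFD 1 and 253 for CD_DSS 1. Without diet the joint counts were 231 and 321, with a split at 200 FPKM 422 and 1110, and with log2 Saa1 as a number 513 and 754. Voom, added after seeing the data, gave 114 and 263, and 49 for CD_DSS 1. With the replicate block the state count was 14 and CD_DSS 1 gave 7; same-numbered libraries did not deviate together (5 of 18 correlations over 0.1, from -0.356 to 0.258). Leaving out 1 library gave 0 to 166 for the state, 14 to 292 for the label, 945 to 2475 and 1590 to 2655 for each alone, 0 to 43 for HFD 1, 13 to 50 for CD_DSS 1, and 661 to 1241 and 756 to 1281 genes separated by state and label. The cause was not tested. With TPM the median coefficient of all genes was -0.0998 for the state and 0.0871 for the label, against -0.01 and 0.00 as reported. Direction was followed for the named genes that had passed the test and kept in each of these alternatives, but many calls were lost. With 1 library left out, state calls were lost in 213 instances and kept in 87, label calls were lost in 143 and kept in 361, and CD_DSS 1 calls were lost in 55 and kept in 132. Of 25 state genes, 24 lost the call with library weights, 24 without the filter, 20 with the replicate block and 14 with TPM. Named genes that had not passed were not followed.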
